A study of Mus musculus with 18 samples.

Results

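This account follows the transcripts of genes that the tumour suppressor p53 switches on, together with genes used as markers of cellular senescence, in mouse bone marrow. The set is a list of named genes: Trp53, Cdkn1a, Cdkn2a, Mdm2, Bax, Bbc3, Ccng1, Aen, Phlda3 and Sesn2. Of these 10 genes 8 were measured, among 19505 genes in all, and Trp53 and Bax were not analysed here. RNA came from preparations labelled as bone marrow mesenchymal cells (stromal cells that can form bone and fat and that support blood formation), taken from femurs and tibias by removing blood cells with antibody-coated beads. There were 18 mice with 1 array each: 5 untreated control BALB/c mice and 5 NeuT mice aged 12 weeks, and 4 BALB/c and 4 NeuT mice aged 24 weeks. The transgene of NeuT mice is an activated form of rat Erbb2, the HER2/neu receptor gene, known to be driven by a mammary tumour virus promoter, and the labels place them at an early stage of breast tumour formation at 12 weeks and a late stage at 24 weeks. Both NeuT groups are called tumour-bearing, so that transgene and tumour cannot be told apart, and age cannot be told apart from any processing batch of the younger and older mice.

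In unstressed cells p53 is kept low by MDM2, a ubiquitin ligase whose own gene p53 activates, so that the pair forms a feedback loop. Damage, oncogene signalling or ribosome stress frees p53, which then induces genes of cell cycle arrest, cell death, DNA repair and metabolism. In the bone marrow p53 limits the number of blood stem and progenitor cells and sets how marrow cells respond to irradiation. Senescence, a lasting arrest, is held by the cyclin-dependent kinase inhibitors p21 (Cdkn1a) and p16 (Cdkn2a) and is accompanied by a secretory programme of cytokines, proteases and growth factor binding proteins.

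The 250 bases before the annotated start of Ccng1, Mdm2 and Cdkn1a are shown because the first pair were the genes that passed the test in NeuT mice, and because Cdkn1a is the gene by which p53 activity is most often read. Sequences and coordinates are from RefSeq on build GRCm38.p6, 5′ to 3′ on the gene's strand, and capitals mark every match to the p53 half-site consensus, which reads the same on both strands. The windows are chr11:40755287-40755536 (minus strand) for Ccng1, chr10:117710759-117711008 (minus strand) for Mdm2, and chr17:29090729-29090978 (plus strand) for the upstream start of Cdkn1a. The Mdm2 and Cdkn1a windows lie directly upstream of the annotated gene. That of Ccng1 begins at its listed start and overlaps the annotated gene, which reaches to base 40755309.
Ccng1: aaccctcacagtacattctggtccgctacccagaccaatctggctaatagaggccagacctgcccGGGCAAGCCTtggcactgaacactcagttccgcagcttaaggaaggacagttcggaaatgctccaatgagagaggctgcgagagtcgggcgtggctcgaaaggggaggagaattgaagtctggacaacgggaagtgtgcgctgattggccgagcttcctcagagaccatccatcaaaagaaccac
Mdm2: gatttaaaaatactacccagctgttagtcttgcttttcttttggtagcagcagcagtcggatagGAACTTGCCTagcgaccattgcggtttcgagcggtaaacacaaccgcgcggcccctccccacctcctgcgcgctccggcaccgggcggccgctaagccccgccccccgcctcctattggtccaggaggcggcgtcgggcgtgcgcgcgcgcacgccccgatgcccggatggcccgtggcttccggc
Cdkn1a: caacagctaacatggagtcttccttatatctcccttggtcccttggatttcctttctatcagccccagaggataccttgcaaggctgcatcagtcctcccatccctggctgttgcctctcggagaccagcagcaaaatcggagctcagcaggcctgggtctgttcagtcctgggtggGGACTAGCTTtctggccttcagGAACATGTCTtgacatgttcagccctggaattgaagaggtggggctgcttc
Windows of 300 bases, with 50 bases after the start, were available for all 8 genes, which have 13 annotated starts between them. At least 1 match was present for 4 of the 8 genes (Ccng1, Mdm2, Cdkn1a and Aen), against 9.55% of 27025 genes and 8.36% of all 32851 windows. The matches began 185 bases before the start in Ccng1, 186 in Mdm2, and 73 and 51 in Cdkn1a. A pair of matches at most 13 bases apart, as in the Cdkn1a window, was found in 0.0731% of all windows. The second start of Cdkn1a, and the windows of Bbc3, Phlda3, Sesn2 and Cdkn2a, held none, which says only that these letters are not in these windows. The genes were listed as p53 targets, so the matches describe them and test nothing.

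Values are log2 signals, so a difference of 1 is a doubling of the signal, and p-values are from limma with Benjamini-Hochberg adjustment across the 19505 genes, and an adjusted p under 0.05 passes. Median signals of the arrays lay between 8.43 and 8.56. Negative control probe sets had a median of 7.35. Across genes any 2 arrays correlated at 0.978 to 0.997. Those least like the rest were replicate 4 of the 12-week NeuT mice, replicate 3 of the 24-week BALB/c mice and replicate 1 of the 24-week NeuT mice. Of the antigens by which the cells were characterised, Itgb1 (CD29) read 11.10 to 11.57 and Cd44 read 11.59 to 12.01. Ptprc, which encodes the depleted antigen CD45, still read 11.70 to 12.45 and the neutrophil granule gene Elane 13.62 to 14.24, while the stromal genes Pdgfrb, Col1a2 and Cxcl12 read 7.96 to 8.92, 8.25 to 8.86 and 9.04 to 9.45. The last 3 stayed under 10.46, the 95th percentile of the negative controls, in every array. So did Cdkn2a, Phlda3, Bbc3, Aen and Sesn2 of the set, the last 3 with highest signals of 9.76, 9.96 and 8.98. Pmaip1, Dram1, Tigar and Tnfrsf10b, described below, did too (highest 9.75, 10.07, 8.37 and 8.21). So did the secretory genes Mmp9, Hgf, Igfbp5, Tnf and Plau described below (highest 9.10, 9.15, 9.81, 9.65 and 8.53). Il1b, with a highest signal of 10.4555, reached the level of that percentile. Ccng1, Ccl4, Id1 and Bcl2 lay on both sides of it. By level alone such signals cannot be told from those of the brighter negative controls. The Ptprc and Elane signals place the signals below in a mixture with blood cells. In such bulk samples fewer cells of a type and less RNA per cell cannot be told apart.

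At 12 weeks 2 of the 8 genes were higher in NeuT than in BALB/c mice, Ccng1 and Mdm2, and none was lower. Ccng1 rose 1.36-fold and Mdm2 1.21-fold, and in both the NeuT and BALB/c mice did not overlap. The other 6 did not pass, among them Cdkn1a, the p21 gene. Over all genes 3.15% were called higher and 0.687% lower, and the groups did not overlap in 7.46% of genes. The median log2 difference of the 8 genes was 0.11, beside -0.025 over all genes.

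**Figure D1:**
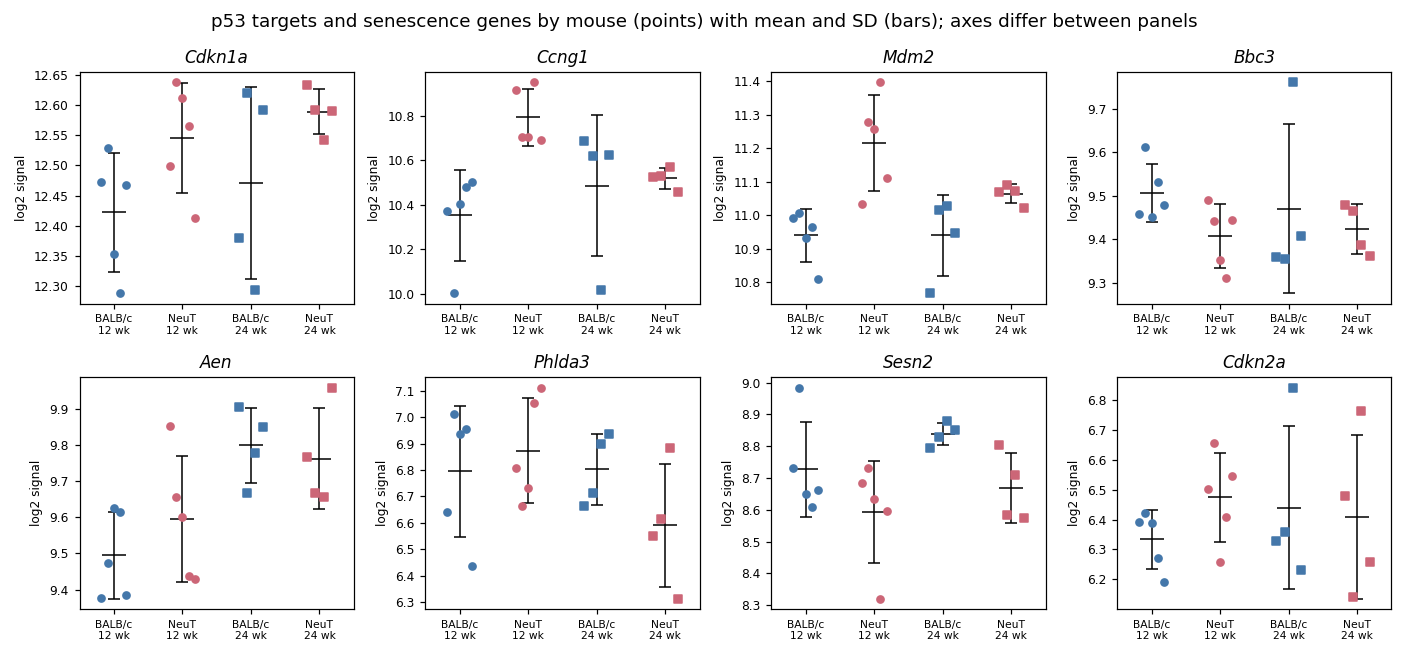
Log2 signal (vertical axes, which differ between panels) of the 8 measured genes in each mouse (points), with the group mean and SD (bars), for BALB/c (blue) and NeuT (red) mice of 12 weeks (circles) and 24 weeks (squares). Ccng1 and Mdm2 of the 12-week NeuT mice lie above all 12-week BALB/c mice, and 2 BALB/c mice have low Ccng1 signals of 10.004 and 10.016.

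Ccng1 (Entrez gene 12450) encodes cyclin G1, a p53-induced protein that recruits a phosphatase to MDM2. In the 5 BALB/c mice of 12 weeks it read 10.37, 10.004, 10.40, 10.48 and 10.504. In the 5 NeuT mice of that age it read 10.91, 10.70, 10.70, 10.95 and 10.69. Every NeuT value thus lay above every BALB/c value, with 1 BALB/c mouse well below its group. The means were 10.35 ± 0.20 (SD, n = 5) and 10.79 ± 0.13 (n = 5), and the log2 difference was 0.44 ± 0.11 (SE, adjusted p = 0.0274). At 24 weeks the BALB/c mice read 10.69, 10.62, 10.02 and 10.62. The NeuT mice of 24 weeks read 10.52, 10.53, 10.57 and 10.46. Here 3 of the 4 BALB/c mice lay above all NeuT mice and the other far below. The difference was 0.034 ± 0.12 (adjusted p = 0.936), with a 95% interval from -0.22 to 0.29. Among the group means that of 12-week NeuT mice was the highest. Those of the other 3 groups (10.35, 10.49 and 10.52) differed by less than the SD of the BALB/c mice of 24 weeks, 0.31. This SD is widened by the mouse at 10.02. Without that mouse the log2 difference at 24 weeks was -0.12 (limma, adjusted p = 0.764).

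Mdm2 (Entrez gene 17246) encodes the ubiquitin ligase that marks p53 for degradation. At 12 weeks it read 10.99, 11.01, 10.93, 10.97 and 10.81 in BALB/c mice. The NeuT mice of 12 weeks read 11.03, 11.28, 11.26, 11.40 and 11.11. The lowest NeuT value lay just above the highest BALB/c value. The log2 difference was 0.27 ± 0.074 (SE, adjusted p = 0.0399), from 10.94 ± 0.079 (SD) to 11.21 ± 0.14. At 24 weeks the BALB/c mice read 10.77, 11.02, 11.03 and 10.95 and the NeuT mice 11.07, 11.09, 11.07 and 11.02. The groups overlapped by 1 mouse, and the difference of 0.12 ± 0.083 did not pass (adjusted p = 0.550, 95% interval -0.048 to 0.30).

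Both calls lie close to the threshold. Without 1 of the 10 arrays compared the call of Ccng1 ended in 4 fits (BALB/c replicates 1 and 2, NeuT replicates 1 and 4, adjusted p = 0.0577, 0.101, 0.0621 and 0.0834), and that of Mdm2 in 8, holding only without NeuT replicate 1 or 5. The differences in these fits ran from 0.35 to 0.48 for Ccng1 and from 0.23 to 0.32 for Mdm2. Without the 3 arrays least correlated with the others Ccng1 passed (0.40, adjusted p = 0.0143) and Mdm2 did not (0.23, adjusted p = 0.0680). A further quantile normalisation gave 0.38 (adjusted p = 0.0508) and 0.22 (adjusted p = 0.0748), and cyclic loess 0.397 (adjusted p = 0.0448) and 0.23 (adjusted p = 0.0708). By an exact permutation test of the 12-week groups, two-sided and without adjustment over genes, both gave p = 0.00794, the smallest that 5 against 5 mice allow. Groups that do not overlap always give this p, so it restates the separation, found in 7.46% of all genes, and adds nothing to it.

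Blood-cell markers moved with the same groups. The mean of 15 neutrophil genes ran from 10.62 to 11.22 in 12-week BALB/c and from 10.79 to 12.08 in 12-week NeuT mice, with 6 of the 15 called higher and none lower. The mean of 13 monocyte and macrophage genes ran from 8.69 to 8.85 and from 8.91 to 9.31 (5 higher, 1 lower). That of 12 B-cell genes ran from 10.78 to 10.997 and from 9.47 to 10.85 (none called). All 12 had lower means in NeuT mice (median -0.55), 8 of them at an unadjusted p under 0.05 in limma, beside 21% of all genes. Of 13 T and NK cell genes 1 was called higher at 12 weeks, and 1 higher and 3 lower at 24 weeks. The mean of 7 megakaryocyte and platelet genes ran from 10.56 to 10.82 in BALB/c and from 10.03 to 10.53 in NeuT mice, and that of 8 erythroid genes from 11.72 to 11.93 and from 11.34 to 11.69. In both lists the groups did not overlap and none of the genes passed (5 of 7 and 2 of 8 at an unadjusted p under 0.05 in limma). At 24 weeks the megakaryocyte list ran from 10.38 to 10.45 in BALB/c and from 10.38 to 10.81 in NeuT mice. At 12 weeks all 12 B-cell genes had group means above the negative control median, as had 13 of the 15 neutrophil genes in BALB/c and all 15 in NeuT mice. With the neutrophil and B-cell means as covariates the log2 difference was 0.42 for Ccng1 (adjusted p = 0.572) and 0.22 for Mdm2 (adjusted p = 0.630), in a fit in which 4 of all genes passed. The median signal of 1324 positive control probe sets also differed, from 10.53 to 10.60 in BALB/c and from 10.59 to 10.74 in NeuT mice of 12 weeks. With this median as a covariate, an alternative chosen after seeing the data, the differences were 0.26 for Ccng1 (adjusted p = 0.364) and 0.22 for Mdm2 (adjusted p = 0.306), and 35 of all genes passed. The part of these measures in the results was not tested beyond these fits.

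**Figure D2:**
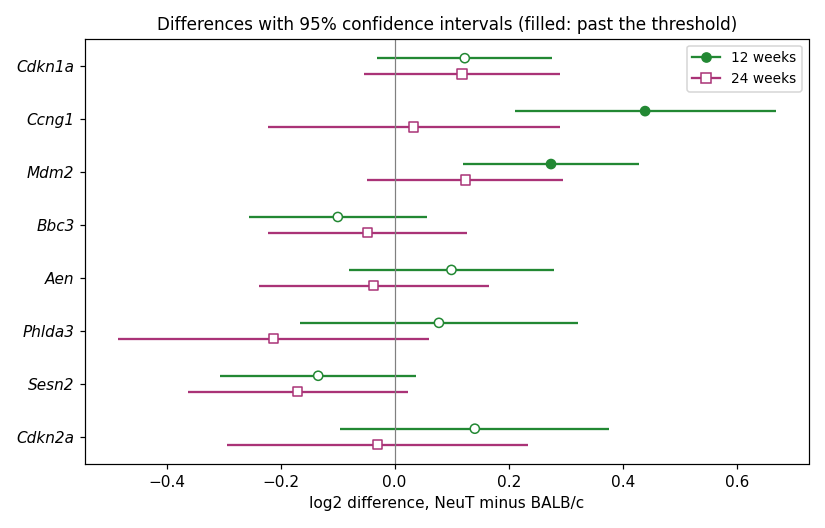
Log2 differences, NeuT minus BALB/c (horizontal axis), of the 8 genes at 12 weeks (circles) and 24 weeks (squares), with 95% confidence intervals of the fit over all genes; filled symbols passed the threshold. The intervals of Ccng1 and Mdm2 at 12 weeks exclude 0, and all 8 intervals at 24 weeks include it.

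Cdkn1a (Entrez gene 12575) encodes p21, which stops the cell cycle by inhibiting cyclin-dependent kinases. It read 12.47, 12.53, 12.35, 12.29 and 12.47 in BALB/c mice of 12 weeks. It read 12.50, 12.64, 12.61, 12.57 and 12.41 in NeuT mice of that age. The ranges overlapped, and the log2 difference was 0.12 ± 0.074 (SE, adjusted p = 0.347), with a 95% interval from -0.031 to 0.28. At 24 weeks the BALB/c values were 12.38, 12.62, 12.29 and 12.59 and the NeuT values 12.63, 12.59, 12.54 and 12.59. The NeuT mice lay close together (SD 0.037) near the top of the spread of the BALB/c mice (SD 0.16), and 1 of them lay just above it. The difference was again 0.12 ± 0.083 (adjusted p = 0.574), with an interval from -0.054 to 0.29, so a rise beyond 1.22-fold lies outside the 95% interval at either age.

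Of the cell death genes, Bbc3 encodes PUMA, a BH3-only protein that releases BAX and BAK. The log2 difference of Bbc3 was -0.0997 ± 0.076 (SE, adjusted p = 0.470) in the younger mice and -0.048 ± 0.084 (adjusted p = 0.851) in the older. At 12 weeks it ran from 9.45 to 9.61 in BALB/c and from 9.31 to 9.49 in NeuT mice, so the ranges overlapped narrowly. At 24 weeks 3 BALB/c mice read 9.36, 9.36 and 9.41 and replicate 3 read 9.76, while the NeuT mice ran from 9.36 to 9.48. Aen encodes a nuclease that p53 induces during apoptosis. At 12 weeks it ran from 9.38 to 9.63 in BALB/c and from 9.43 to 9.85 in NeuT mice, and at 24 weeks from 9.67 to 9.90 and from 9.66 to 9.96. Neither NeuT difference passed (0.0996 and -0.037, adjusted p = 0.533 and 0.905). Phlda3, which encodes a repressor of AKT signalling, gave signals under the negative control median in all 18 mice, between 6.31 and 7.11. Its log2 differences of 0.078 and -0.21 (adjusted p = 0.737 and 0.512) therefore compare signals only, and no change in level can be read from them.

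Sesn2 encodes sestrin 2, a stress-induced regulator that restrains mTORC1 signalling. In BALB/c mice it ran from 8.61 to 8.98 at 12 weeks and from 8.80 to 8.88 at 24 weeks. In NeuT mice it ran from 8.32 to 8.73 at 12 weeks and from 8.58 to 8.80 at 24 weeks. The NeuT means were the lower at both ages, with ranges that overlapped at 12 weeks and, through 1 NeuT mouse, at 24 weeks. The log2 differences, -0.13 ± 0.083 (SE) and -0.17 ± 0.093, did not pass (adjusted p = 0.363 and 0.446). Cdkn2a, the p16 and p19ARF gene, read between 6.14 and 6.84, under the negative control median in all 18 mice. Its differences of 0.14 and -0.030 (adjusted p = 0.501 and 0.947) carry no information on its level, and the array signal does not separate its alternative transcripts.

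At 24 weeks, then, none of the 8 genes passed, and none reached an unadjusted p under 0.05 in limma, against 1.40% of all genes past the threshold and 13.2% at an unadjusted p under 0.05. Of all genes 1.18% were called higher and 0.220% lower. By the exact permutation test none of the 8 had p under 0.05 at 24 weeks, where 4 against 4 mice can reach 0.0286. The difference between the NeuT effects at 24 and 12 weeks did not pass for any of the 8 genes, where 0.0103% of all genes did, and Ccng1 alone had an unadjusted p under 0.05. Its effect was smaller by 0.41 ± 0.17 (log2, SE) at 24 weeks (adjusted p = 0.731, 95% interval of the difference -0.75 to -0.062). For Mdm2 the difference of effects was -0.15 ± 0.11 (adjusted p = 0.882). The calls at 12 weeks and their absence at 24 weeks are therefore not shown to differ. Of simulated log2 changes of 0.5, 81% were recovered at 12 weeks and 75% at 24 weeks, and of changes of 0.3, 28% and 11%. For the difference of effects only 30% and 3% were recovered. The simulation drew independent noise for each gene, without shared array or cell mixture effects, so recovery under such effects is not known. It also put 100 changed genes of each size into every comparison. The adjustment depends on how many genes change, so recovery in the data can differ from these shares.

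With age, from 12 to 24 weeks, none of the 8 genes passed in either mouse line, where 0.579% of all genes passed in BALB/c mice and 0.0359% in the NeuT line. At an unadjusted p under 0.05 in limma there was 1 gene in BALB/c mice, Aen, and there were 2 in NeuT mice, Ccng1 and Phlda3, beside 15.3% and 12.6% of all genes. Phlda3 was under the negative control median throughout. All 8 erythroid genes had lower means at 24 weeks in both lines (medians -0.42 and -0.43, none past the threshold, 4 and 6 at an unadjusted p under 0.05), as had all 7 megakaryocyte genes in BALB/c mice (median -0.21). The part of these in the age differences was not tested. The 4 BALB/c mice of 24 weeks read 9.90, 9.67, 9.78 and 9.85 for Aen, all above the 5 younger mice, which read 9.38, 9.47, 9.63, 9.61 and 9.38. The log2 difference was 0.30 ± 0.092 (SE, adjusted p = 0.107), and groups that do not overlap were found in 6.95% of genes in this comparison. It passed in 2 of 10 alternatives, with array weights (0.25, adjusted p = 0.0466, 2375 of all genes passing) and with the blood-cell covariates (0.34, adjusted p = 0.0301, 413 passing), and in 0 of the 18 fits without 1 array. Ccng1 in NeuT mice had an age difference of -0.27 ± 0.12 (adjusted p = 0.330), with the older mice all below the younger, where 5.08% of all genes separate. This comparison shares its NeuT mice with those above. Cdkn1a gave 0.049 ± 0.079 in BALB/c and 0.044 ± 0.079 in NeuT mice (adjusted p = 0.823 and 0.886), and Mdm2 -0.00040 and -0.15 (adjusted p = 0.999 and 0.444).

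Further p53 targets were read from a list of 40 genes, of which 38 were measured. At 12 weeks the log2 differences of the list ran from -0.41 to 0.69, 21 above 0 and 17 below, with a median of 0.038. Past the threshold 3 were higher in NeuT mice (7.89% of the list, beside 3.84% of all genes called in either direction) and none lower. Pmaip1, which encodes the BH3-only protein NOXA, rose 1.62-fold (log2 0.69 ± 0.11 SE, adjusted p = 0.00142). Its signals ran from 8.50 to 8.99 in BALB/c and from 9.10 to 9.75 in NeuT mice. Dram1, which encodes a lysosomal membrane protein of p53-induced autophagy, rose 1.38-fold (adjusted p = 0.0172). Its ranges, 9.03 to 9.19 and 9.30 to 9.76, did not touch. Tigar, which encodes a phosphatase that lowers glycolytic flux, rose 1.28-fold (adjusted p = 0.0106), from 7.77 to 7.94 in BALB/c against 8.10 to 8.37 in NeuT mice. Pmaip1 and Tigar passed in each of the 10 fits without 1 array and Dram1 in 9. With the blood-cell covariates, where 4 of all genes passed, the log2 differences were 0.44 for Pmaip1, 0.28 for Tigar and 0.14 for Dram1 (adjusted p = 0.506, 0.562 and 0.760). With the positive control covariate they were 0.58, 0.39 and 0.47, and the calls ended too (adjusted p = 0.0549, 0.0578 and 0.129).

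At 24 weeks the log2 differences of the 38 ran from -0.70 to 0.52, 19 above 0 and 19 below, with a median of -0.00099. Past the threshold 1 was higher and none lower (2.63% of the list, beside 1.40% of all genes called in either direction). This was Dram1, which rose 1.44-fold (log2 0.52 ± 0.12 SE, adjusted p = 0.0308), from 9.02 to 9.41 in BALB/c against 9.43 to 10.07 in NeuT mice. Its call ended in 5 of the 8 fits without 1 array and in 6 of 10 alternatives, with log2 differences of 0.48 to 0.53 in 5 of these and 0.12 with the blood-cell covariates (adjusted p = 0.873). Pmaip1 and Tigar gave 0.27 and 0.11 (adjusted p = 0.337 and 0.600), and for Pmaip1 the groups again did not overlap (8.99 to 9.06 and 9.11 to 9.53), as in 6.72% of all genes. With age 1 gene of the list rose in BALB/c mice (2.63% of the list, beside 0.579% of all genes called in either direction). This was Tnfrsf10b, the gene of a death receptor (log2 0.39 ± 0.091 SE, adjusted p = 0.0492), from 7.40 to 7.88 at 12 weeks against 7.95 to 8.21 at 24 weeks. In NeuT mice it gave 0.37 ± 0.091 (adjusted p = 0.106). Its call in BALB/c mice ended in 7 of the 9 fits without 1 array.

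**Figure D3:**
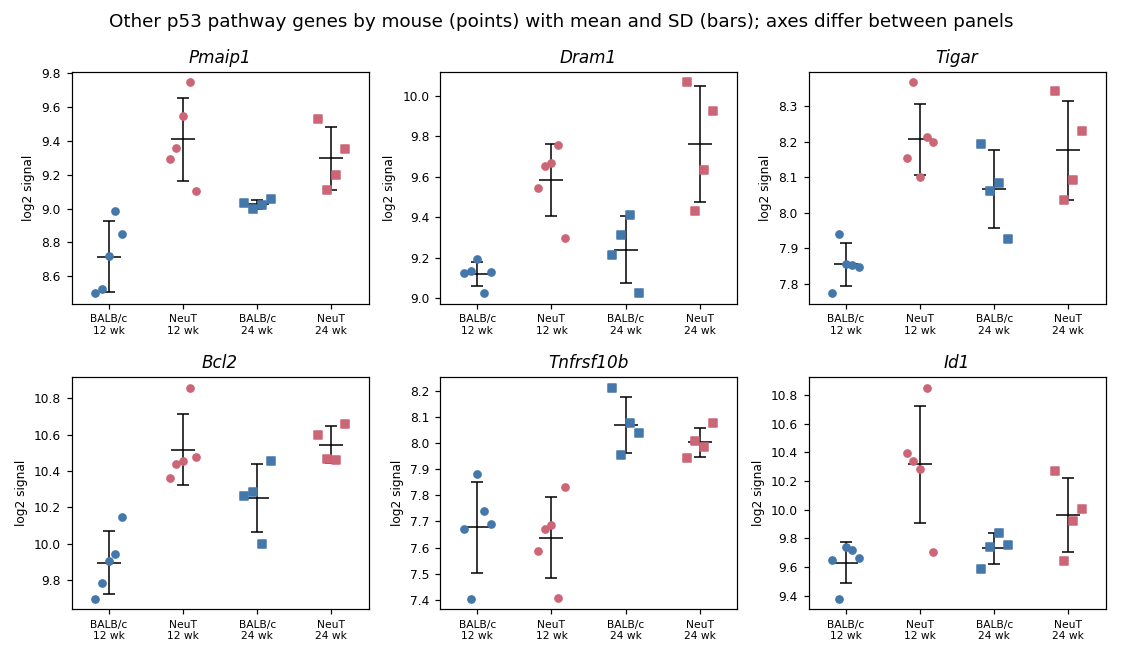
Log2 signal (vertical axes, which differ between panels) of Pmaip1, Dram1, Tigar, Bcl2, Tnfrsf10b and Id1 in each mouse (points), with group means and SD (bars), for BALB/c (blue) and NeuT (red) mice of 12 weeks (circles) and 24 weeks (squares). At 12 weeks the 5 NeuT mice lie above the 5 BALB/c mice for Pmaip1, Dram1, Tigar and Bcl2, while Tnfrsf10b separates by age and 1 NeuT mouse overlaps the controls for Id1.

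None of 26 measured p53 regulators passed at either age, with 6 and 1 at an unadjusted p under 0.05 in limma, beside 21% and 13.2% of all genes. The smallest p at 12 weeks belonged to Prkdc, a DNA damage kinase gene (0.36, adjusted p = 0.110), and Brd7, a p53 co-activator gene (0.28, adjusted p = 0.131). At 24 weeks they belonged to Banp (-0.16, adjusted p = 0.358) and Brd7 (0.22, adjusted p = 0.443). Of 15 further BCL2 family genes 1 rose at 12 weeks (6.67% of the list, beside 3.84% of all genes called in either direction). This was Bcl2, the anti-apoptotic founder of the family, at 1.54-fold (log2 0.62 ± 0.0999 SE, adjusted p = 0.00155). It ran from 9.70 to 10.15 in BALB/c and from 10.36 to 10.86 in NeuT mice and passed in each of the 10 fits without 1 array. Its call ended with the blood-cell covariates (0.58, adjusted p = 0.375) and with the positive control covariate (0.46, adjusted p = 0.0658). At 24 weeks none of the 15 passed (3 at an unadjusted p under 0.05). Bcl2 then gave 0.29 (adjusted p = 0.229) and the BH3-only gene Bmf -0.37 (adjusted p = 0.158).

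Of 20 cell cycle genes that p53 lowers through p21, none passed at 12 or 24 weeks, with 8 and 0 at an unadjusted p under 0.05 in limma, beside the same 21% and 13.2% of all genes. Cdc20 and Plk1, both of mitosis, had the smallest p at 12 weeks (0.27 and 0.22, adjusted p = 0.0788 and 0.0830). Ccna2 and Cdc25a had it at 24 weeks (-0.14 and 0.13, adjusted p = 0.448 and 0.574). The list medians were -0.020 and 0.030, beside -0.025 and -0.00014 over all genes. In the list of cell cycle inhibitors and senescence genes 1 of 25 rose at 12 weeks, Id1, a repressor of p16 transcription, 1.61-fold (adjusted p = 0.0100), with 1 NeuT mouse at 9.71 inside the BALB/c range. This is 4.0% of the list, beside 3.84% of all genes, and the log2 difference of 0.69 was 0.17 with the blood-cell covariates (adjusted p = 0.743) and 0.54 with the positive control covariate (adjusted p = 0.181). At 24 weeks none passed (5 at an unadjusted p under 0.05), and Ets1 and Cited2 gave -0.53 and 0.30 (adjusted p = 0.0948 and 0.127).

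Among the 6 pathway lists the secretory genes of senescence had the highest share of calls, under the shares of the neutrophil (40%) and monocyte (46.2%) marker lists at 12 weeks. Of 31 measured, 7 rose at 12 weeks and 5 at 24 weeks and none fell, 22.6% and 16.1% beside 3.84% and 1.40% of all genes. Those named at 12 weeks were Mmp9 (1.02), a gelatinase also held in neutrophil granules, the chemokine gene Ccl4 (0.93), the interleukin gene Il1b (0.74) and the growth factor gene Hgf (0.63) (adjusted p = 0.0183, 0.00492, 0.0113 and 0.0368). Mmp9 had a mean of 7.29 in 12-week BALB/c mice, under the negative control median, and of 7.35, level with it, in those of 24 weeks, so the size of its change is not known. At 24 weeks they were Mmp9 (1.07), Igfbp5 (0.69), the cytokine gene Tnf (0.56) and the urokinase gene Plau (0.56) (adjusted p = 0.0430, 0.0492, 0.0372 and 0.0426). Mmp9 is also in the neutrophil list and Igfbp5 in the stromal list, of which 3 of 18 genes rose at 24 weeks, and neutrophils and monocytes are known sources of Il1b, Ccl4 and Tnf. The neutrophil list mean at 24 weeks ran from 10.60 to 11.05 in BALB/c and from 11.09 to 11.93 in NeuT mice. With the blood-cell covariates, where 4 and 2 of all genes passed, none of the calls named here held. The calls of this list that are not named here were not looked up in that fit. The log2 differences were then 0.18 for Mmp9, 0.61 for Ccl4, 0.55 for Il1b and 0.64 for Hgf at 12 weeks, and 0.14 for Mmp9, 0.78 for Igfbp5, 0.19 for Tnf and 0.22 for Plau at 24 weeks. The neutrophil covariate includes Mmp9 itself, so the smaller differences of Mmp9 are partly built in. Without 1 array those at 24 weeks ended in 6 of 8 fits for Mmp9, 7 for Igfbp5, 4 for Tnf and 5 for Plau, and that of Hgf at 12 weeks in 7 of 10.

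**Figure D4:**
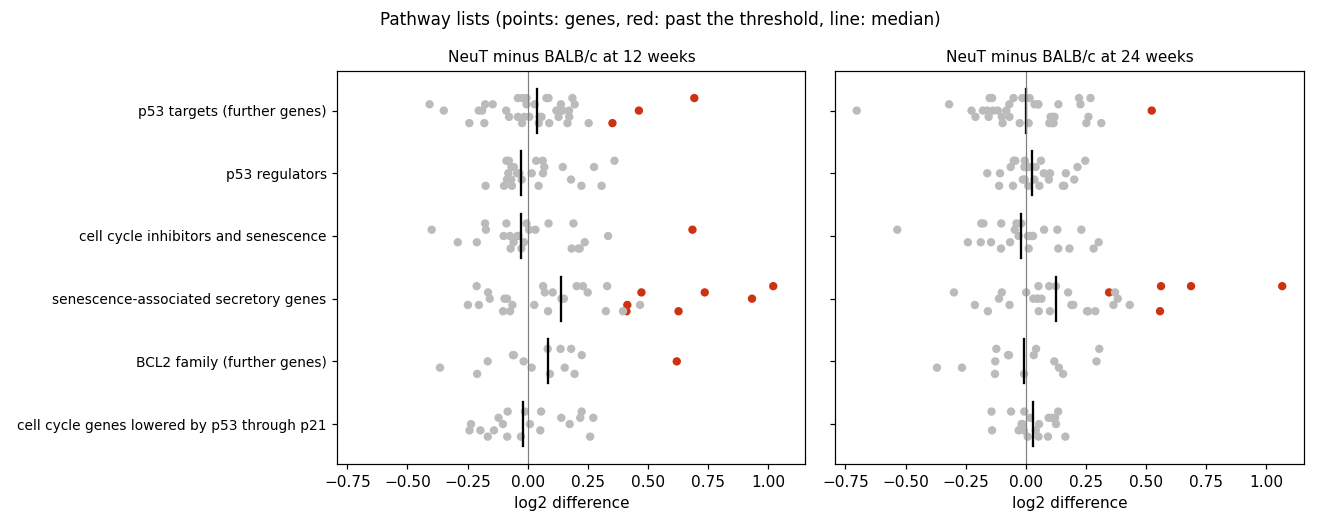
Log2 differences, NeuT minus BALB/c (horizontal axes), at 12 weeks (left) and 24 weeks (right) for the genes of the 6 lists (points, spread vertically for legibility), with those past the threshold in red and the list median as a black line. Red points are most frequent among the secretory genes (7 at 12 and 5 at 24 weeks) and absent among the p53 regulators and the cell cycle genes.

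Within groups the correlations among the 8 genes were of both signs. Deviations from the group mean over the 18 arrays were compared for 28 pairs of genes and for 72 pairs of a gene with a marker list or the positive controls, 100 relations in all, with permutation within groups. None passed after adjustment over the 100, which with 18 arrays does not show that the genes vary independently. Pairs with Cdkn2a or Phlda3, under the negative control median in all mice, carry no information on levels. Bbc3 and Ccng1 had the lowest r, -0.77 (permutation p = 0.0290, adjusted p = 0.415; rho = -0.64, p = 0.0293, adjusted p = 0.445). Without the 2 arrays farthest out in Bbc3, BALB/c 12-week replicate 2 and BALB/c 24-week replicate 3, r was -0.38, so the relation rests on those arrays. They are the arrays with the lowest Ccng1. The smallest p belonged to Bbc3 and Sesn2 (r = 0.47, permutation p = 0.00455, adjusted p = 0.404; rho = 0.54, p = 0.0111, adjusted p = 0.445), and r was 0.47 without the same 2 arrays. Of the marker relations, Aen had r = -0.69 and rho = -0.61 with the B-cell list (permutation p = 0.00809 and 0.0197, adjusted p = 0.404 and 0.445), and r was -0.46 without the 2 arrays farthest out in Aen. With the megakaryocyte list Aen had r = -0.65 and rho = -0.57 (permutation p = 0.0164 and 0.0252, adjusted p = 0.409 and 0.445), and r was -0.39 without them. Of the called genes, Mdm2 had r = 0.57 and rho = 0.55 with the T and NK cell list (permutation p = 0.0246 and 0.0312, adjusted p = 0.415 and 0.445). Mdm2 had r = 0.499 and rho = 0.46 with the stromal list (permutation p = 0.0261 and 0.0529, adjusted p = 0.415 and 0.482). Without the 2 arrays farthest out in Mdm2 these r were 0.43 and 0.33. For Ccng1 r ran from -0.14 to 0.29 over the cell-type lists. With the positive control median Ccng1 had r = 0.57 and rho = 0.32 (permutation p = 0.0829 and 0.341, adjusted p = 0.553 and 0.838). This r was 0.41 without the 2 arrays farthest out in Ccng1. Cdkn1a had r = 0.63 and Bbc3 r = -0.64 with that median (permutation p = 0.0966 and 0.0701, adjusted p = 0.568 and 0.553). Without the 2 arrays farthest out in each gene these were 0.64 and -0.40. Ccng1 and Mdm2, which were both higher at 12 weeks, had r = -0.33 and rho = -0.26 within groups (permutation p = 0.270 and 0.389, adjusted p = 0.717 and 0.838), and r was -0.15 without the 2 arrays farthest out in Mdm2. Cdkn1a and Mdm2 had r = 0.31 and rho = 0.33 (permutation p = 0.326 and 0.275, adjusted p = 0.724 and 0.838), and r was 0.58 without the 2 arrays farthest out in Cdkn1a.

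**Figure D5:**
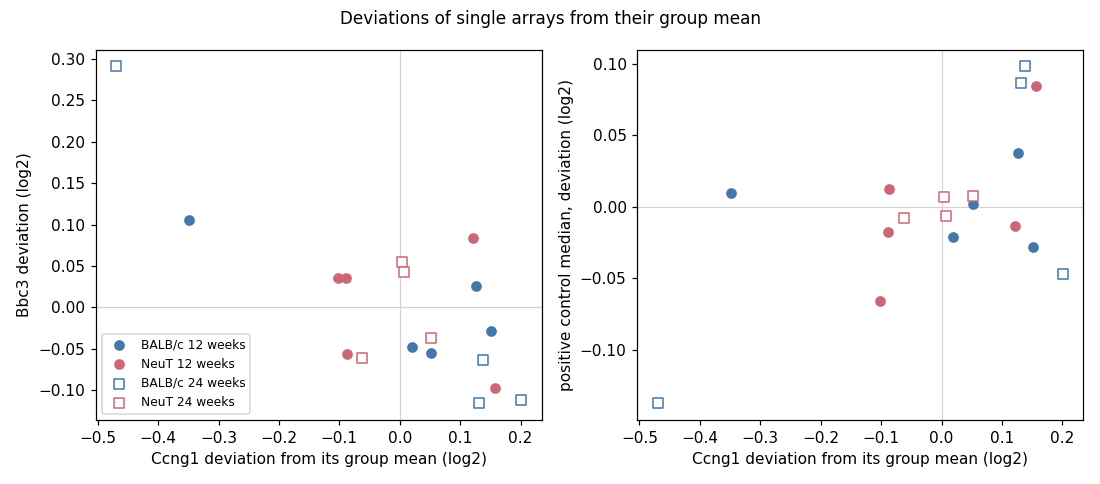
Deviation of each array from its group mean (log2) for Ccng1 (horizontal axes) against Bbc3 (left) and the median of the positive controls (right); colours show BALB/c (blue) and NeuT (red), filled circles 12 weeks and open squares 24 weeks. The 2 arrays at the far left are BALB/c 12-week replicate 2 and BALB/c 24-week replicate 3; only the latter is also low in the positive controls.

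The genes whose signals followed those of the set most closely over the 18 arrays were looked up for the called genes and for Cdkn1a, as a description. For Ccng1 they were Nop58 (Pearson r = 0.96), a ribonucleoprotein gene, Hspa9 (0.91), which encodes the mitochondrial chaperone mortalin, and R3hdm1 (0.91). For Mdm2 they were Dgat1 (0.899), Phf11d (0.88) and Fuca1 (0.85), and for Cdkn1a Casp8 (0.87), Anxa4 (0.87) and Tfip11 (0.86). The same genes had r of 0.94, 0.87 and 0.91 with Ccng1, 0.797, 0.74 and 0.75 with Mdm2 and 0.85, 0.83 and 0.83 with Cdkn1a for deviations within groups. The nearest genes were not the same for Ccng1, Mdm2 and Cdkn1a, and the other members were not looked up. Short lists picked from so many genes can differ in any case, so this tests nothing. All points share the array's normalisation and cell mixture.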

How the data were processed

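RNA of 18 mice was hybridised to 1 array per mouse, and the mice are the replicates. The authors deposited log2 signals per probe set, made with RMA in the Transcriptome Analysis Console per the submitters' processing notes; their versions are not named in these sources. Of 29129 probe sets 19572 had 1 gene symbol, and the one with the highest mean was kept for each of 19505 genes. No filter was set. limma 3.58.1 in R 4.3.3 fitted 1 mean per group over all arrays (lmFit, eBayes, 14 residual degrees of freedom), with Benjamini-Hochberg adjustment over all genes. The script was tested on simulated data. Python 3.11.15 with matplotlib 3.10.9 drew the figures.

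The members and lists were chosen with earlier results of these data known. From each list up to 4 genes past the threshold were named by size of change, or else the 2 with the smallest p. For each member past the threshold, and for Cdkn1a, the 3 genes most correlated over the arrays were named. Alternatives were other normalisations, a filter on dim genes, averaged probe sets, other variance settings, array weights, only the 2 groups compared, marker covariates, an exact permutation test, and arrays left out. The positive control covariate was chosen after seeing the data. Dim probe sets compress differences, RMA makes arrays alike in distribution, and the number of arrays limits the precision. The labels give no processing batch.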

Additional observations from a re-analysis of the deposited data

Results flagged for a closer look

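Of 32 groups of mice checked, 4 or 5 values each, 3 held a mouse far from the others, where chance marks about 1 in 20. Bbc3 read 9.76 in BALB/c 24-week replicate 3, against 9.36 to 9.41 in the other 3 mice. Ccng1 read 10.02 in the same mouse, against 10.62 to 10.69. Ccng1 also read 10.004 in BALB/c 12-week replicate 2, against 10.37 to 10.504 in the other 4. BALB/c 24-week replicate 3 also had the lowest positive control median of all arrays, 10.40; the part of this in its values was not tested.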

How the results depend on the processing

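No paired analysis was possible because the mice of the groups are different animals and no label links them. Counts are of all genes past the threshold unless the 8 genes are named. NeuT against BALB/c at 12 weeks (749 genes, 2 of the 8): array weights 2088; blood-cell covariates 4 (0 of the 8); positive control covariate 35 (0 of the 8); quantile 0 of the 8; cyclic loess, only the 2 groups compared, and without the 3 least correlated arrays each 1 of the 8. Of the calls, 463 of 687 were higher after quantile normalisation and 488 of 711 after cyclic loess, against 615 of 749. At 24 weeks (274 genes) the counts were 114 with quantile, 101 with cyclic loess, 577 with weights, 1 with only 2 groups, 2 with blood-cell covariates, 15 without 3 arrays and 7 with the positive control covariate. For the difference of effects (2 genes) they were 4 with quantile, with trend and robust variances and with blood-cell covariates, 10 with weights and 0 without 3 arrays. For age in BALB/c (113 genes) they were 182 with quantile, 220 without dim genes, 2375 with weights (1 of the 8), 183 with only 2 groups, 413 with blood-cell covariates (1 of the 8), 1277 without 3 arrays and 225 with the positive control covariate. For age in NeuT mice (7 genes) they were 3 with quantile, with cyclic loess and with the positive control covariate, 13 without dim genes and with trend and robust variances, 72 with weights, 25 with blood-cell covariates, and 0 with only 2 groups and without 3 arrays. Without 1 array the counts ran from 230 to 1363 at 12 weeks (0 to 2 of the 8), 8 to 641 at 24 weeks, 1 to 3 for the difference, 0 to 589 for age in BALB/c and 1 to 177 in NeuT mice (0 of the 8 in the last 4).

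Differences that turned their sign were none of them past the threshold. At 12 weeks Cdkn2a gave -0.0028 and Aen -0.054 with blood-cell covariates, and Bbc3 0.0084 with the positive control covariate. At 24 weeks Ccng1 gave -0.032 (quantile), -0.025 (cyclic loess), -0.080 (weights), -0.010 (blood-cell covariates), -0.12 (without 3 arrays) and -0.13 (positive control covariate). Cdkn2a gave 0.0068 (cyclic loess), 0.096 (weights), 0.081 (without 3 arrays) and 0.12 (positive control covariate), Bbc3 0.034 (weights), 0.031 (without 3 arrays) and 0.056 (positive control covariate), Aen 0.015 (weights) and Bmf 0.0095 (blood-cell covariates). With age in BALB/c mice Mdm2 gave 0.041 (weights) and 0.015 (positive control covariate), Phlda3 -0.027 (blood-cell covariates) and -0.025 (without 3 arrays), and Cdkn2a -0.027 (without 3 arrays). In NeuT mice Bbc3 gave -0.014 (quantile), -0.012 (cyclic loess), -0.027 (without 3 arrays) and -0.018 (positive control covariate), and Sesn2 -0.039 (without 3 arrays). Without 1 array, NeuT differences ran from -0.012 to 0.13 for Phlda3 at 12 weeks. At 24 weeks they ran from -0.15 to 0.10 for Cdkn2a, -0.086 to 0.049 for Bbc3 and -0.12 to 0.10 for Ccng1, and the difference of effects ran from -0.064 to 0.044 for Cdkn1a. Age differences in BALB/c mice ran from -0.00045 to 0.11 for Cdkn1a, -0.027 to 0.18 for Cdkn2a, -0.033 to 0.057 for Mdm2, -0.13 to 0.0019 for Bbc3 and -0.083 to 0.061 for Phlda3, and in NeuT mice from -0.18 to 0.026 for Cdkn2a and -0.0090 to 0.036 for Bbc3. The cause was not tested.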
